A study of Mus musculus with 24 samples.

Results

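Protein-protected sites (PPSs) were examined on 10 mouse genes that control the passage from the G1 phase of the cell cycle into DNA synthesis. They were the cyclins Ccnd2, Ccnd3 and Ccne1, the kinases Cdk4 and Cdk6, the kinase inhibitors Cdkn1a, Cdkn1b and Cdkn2c, and E2f2 and Rb1. A PPS was assigned to a gene when it overlapped the gene body on the same strand (mm10, GENCODE vM21). The 10 genes held 611 of the 356432 PPSs retained over the 3 time points, and they were 10 of the 9550 protein-coding genes with a PPS in an exon on at least 1 day. On the day 0, day 2 and day 4 lists they held 219 of 114907, 192 of 119487 and 200 of 122038 PPSs.

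The cells were MEL cells, a murine erythroleukemia line that matures along the erythroid lineage in DMSO, collected before induction (day 0) and after 2 and 4 days with 2% DMSO. Protein interaction profile sequencing (PIP-seq) digests crosslinked RNA with a nuclease specific to single-stranded RNA (ssRNase) or double-stranded RNA (dsRNase), with proteins still bound or already removed, so that a stretch enriched when proteins were present over when they were removed is called protected. The 24 libraries formed 12 groups of 2 replicates (3 days by 2 nucleases by proteins present or removed). All groups came from this 1 cell line, fixed with formaldehyde.

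In G1, D-type cyclins bind CDK4 or CDK6, and cyclin E binds CDK2. These kinases phosphorylate RB1, which otherwise holds E2F transcription factors in check, while p27 (Cdkn1b) and p21 (Cdkn1a) restrain cyclin-CDK complexes and p18 (Cdkn2c) restrains CDK4 and CDK6. Erythroid precursors divide several times before they leave the cell cycle during terminal maturation.

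Each list carries, for every PPS, the nuclease and replicate of the calls merged into it. Coverage below is the percentage of a gene's exonic or intronic nucleotides that lay in a PPS with a call of the given replicate, and a change is the later value minus that of day 0, in percentage points, averaged over the 4 possible pairings of replicates and given with its range over them. With 2 replicates per day no p-value was computed. Instead, a gene is described as separated when both replicates of a day lay above or below both replicates of day 0, and the share of all genes separated the same way is given as background. The 2 replicate sets share merged coordinates, so their spread is an underestimate. RNA levels were not analysed here, so more RNA, more cells that hold it and more protein on it cannot be told apart. The study that made these data also ran mRNA-seq and described a minor correlation between PPS coverage of a transcript and its RNA abundance. Of the genes examined here, that study named Cdk4 as significantly lower in RNA by day 4.

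The erythroid identity of the cells was checked on 13 marker genes, of which 10, 12 and 13 had an exonic PPS on day 0, 2 and 4. Their median exonic coverage was 17.2%, 29.6% and 45.6% on the 3 days. Of the markers of other blood cells, Mpo, Elane, Csf1r and Cd3e were at 0 on every day, whereas Itga2b was covered over 37.9%, 37.1% and 44.2%, Pf4 over 31.2%, 6.93% and 11.5%, and Ptprc over 0.79%, 0% and 0%. Calls per nuclease and replicate ranged from 20927 (dsRNase replicate 2 of day 2) to 91091 (ssRNase replicate 2 of day 2). The part of these differences in the results was not tested.

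Sequences of 6 sites are shown first. The choice was made among high-scoring sites with calls of both replicates outside UTRs, so the 3′ UTR sites described below are not included. Shown are a site of Ccnd2, of Cdk6 and of Rb1 with the highest score of its gene, an intronic site of Cdk6 seen only at day 0, an intronic site of Rb1 seen only after induction, and a coding site of Cdkn1a seen only at day 2. They were read from GRCm38 (mm10) on the transcribed strand, 5′ to 3′. Capitals mark the PPS and lower case the 20 nt on each side.
Ccnd2, intron 4, day 4, chr6:127138001-127138220, minus strand: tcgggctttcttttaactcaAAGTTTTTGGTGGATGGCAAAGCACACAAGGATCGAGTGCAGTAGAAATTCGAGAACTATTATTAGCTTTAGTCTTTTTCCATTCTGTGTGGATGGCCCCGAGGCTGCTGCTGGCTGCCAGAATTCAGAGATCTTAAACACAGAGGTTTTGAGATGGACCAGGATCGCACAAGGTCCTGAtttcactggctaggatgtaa
Cdk6, coding exon and upstream intron, day 0, chr5:3472938-3473178, plus strand: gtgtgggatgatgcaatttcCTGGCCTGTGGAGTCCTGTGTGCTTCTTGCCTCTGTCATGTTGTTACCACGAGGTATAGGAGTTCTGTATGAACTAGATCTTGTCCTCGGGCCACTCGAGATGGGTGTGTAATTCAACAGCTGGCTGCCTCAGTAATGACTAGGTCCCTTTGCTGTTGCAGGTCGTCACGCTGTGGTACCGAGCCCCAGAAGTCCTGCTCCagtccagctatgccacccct
Cdk6, intron 3, day 0, chr5:3399196-3399301, plus strand: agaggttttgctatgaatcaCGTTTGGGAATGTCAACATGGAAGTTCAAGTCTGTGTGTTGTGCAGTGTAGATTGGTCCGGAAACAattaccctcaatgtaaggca
Rb1, coding exon, day 4, chr14:73322001-73322160, minus strand: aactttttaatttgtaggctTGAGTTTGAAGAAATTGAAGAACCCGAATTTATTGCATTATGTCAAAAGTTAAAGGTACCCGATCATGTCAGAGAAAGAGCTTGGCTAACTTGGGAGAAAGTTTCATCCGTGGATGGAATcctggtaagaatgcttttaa
Rb1, intron 9, day 4, chr14:73276951-73277092, minus strand: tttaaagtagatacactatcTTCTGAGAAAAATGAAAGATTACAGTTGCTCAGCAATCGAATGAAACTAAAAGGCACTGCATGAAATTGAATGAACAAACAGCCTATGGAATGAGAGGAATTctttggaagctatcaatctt
Cdkn1a, coding exon, day 2, chr17:29098708-29098818, plus strand: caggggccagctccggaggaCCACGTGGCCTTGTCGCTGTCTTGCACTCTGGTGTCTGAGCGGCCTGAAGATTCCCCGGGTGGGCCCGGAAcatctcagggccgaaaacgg

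Over the 10 genes, exonic coverage at day 4 was separated below day 0 for 4 (Cdk4, Cdk6, Cdkn2c and E2f2) and above it for another 4 (Ccnd2, Ccnd3, Cdkn1b and Rb1). By the same rule 25.4% of all 9550 genes were lower and 30.8% higher. At day 2, 2 of the 10 were lower (Cdk6 and Ccne1) and 3 higher (Cdkn1a, Cdkn2c and Rb1), against 30.4% and 22.3% of all genes. The counts of both days moved with the setting. At day 2 the lower count was 5 without replicate 2 of day 2 and 4 without replicate 1 of day 0. The higher count was 5 without replicate 1 of day 2 and 6 with PPSs of a score of 10 or more. At day 4 the higher count was 1 with ssRNase calls alone and the lower count 1 with dsRNase calls alone. The comparisons of day 2 and of day 4 share the day 0 replicates. The median change of the 10 genes was -0.75 points at day 4 (range of the 4 pairs -1.70 to 0.20), against 0.07 for all genes, and -0.26 points at day 2 (range -1.54 to 1.88), against -0.20. The group therefore had no common direction, and the results lay in single genes.

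**Figure D1:**
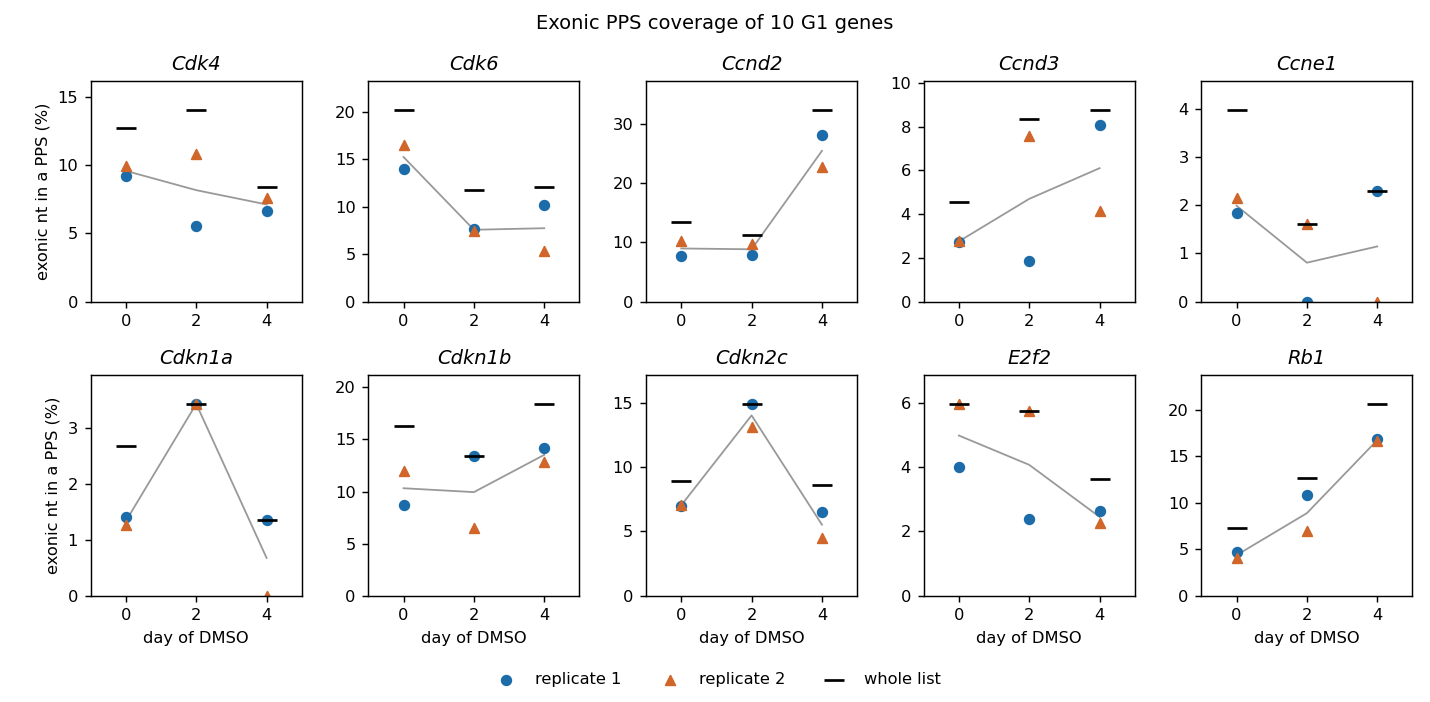
Percentage of exonic nucleotides in a PPS (vertical axis, scaled per gene and starting at 0) at day 0, 2 and 4 of DMSO for the 10 genes. Circles are replicate 1, triangles replicate 2, the grey line joins their means and the black dash is the whole list of that day. Ccnd2 reached 28.1% and 22.7% in the day 4 replicates, and Rb1 16.8% and 16.7%.

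Ccnd2 (chr6:127125162-127152193, minus strand), which encodes a D-type cyclin, had the largest difference in coverage of the 10 genes. Its exonic coverage was 7.67% and 10.2% in the day 0 replicates, 7.93% and 9.71% at day 2, and 28.1% and 22.7% at day 4. Day 0 and day 2 overlapped, and both day 4 values lay far above them, a change of 16.46 points (range 12.49 to 20.43). The difference lay in the 3′ UTR of 5176 nt, which was covered over 5.60% and 6.11% at day 0, 5.18% and 9.39% at day 2, and 37.2% and 28.8% at day 4. The coding sequence, by contrast, was covered over 24.7% and 33.4% at day 0, 12.0% in each replicate at day 2, and 34.1% and 32.6% at day 4, so that day 0 and day 4 overlapped. PPSs on the Ccnd2 gene numbered 38, 38 and 74, and those touching the 3′ UTR 11, 9 and 24. PPSs of 20 to 40 nt, which these counts leave out, numbered 7, 29 and 16 on the gene, the most at day 2.

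The day 4 sites in the Ccnd2 3′ UTR were mostly dsRNase calls. Of those absent at day 0, the longest, 278 nt at chr6:127127773-127128050, had a score of 43.5 with both dsRNase replicates at day 4 and no PPS at day 2. A site of 229 nt at chr6:127129708-127129936 was likewise called by both dsRNase replicates at day 4 alone, with a score of 27.9. A region at chr6:127127500-127127647, by contrast, had calls of both ssRNase replicates on all 3 days, with highest scores of 26.4, 27.2 and 23.5. Among dsRNase calls alone, exonic coverage of Ccnd2 was 4.67% and 5.57% at day 0 and 23.3% and 15.3% at day 4, whereas among ssRNase calls it was 5.07% and 6.04%, then 5.99% and 8.84%. The ssRNase values of the 2 days overlapped and the dsRNase values did not, but the difference between nucleases was not tested. The dsRNase calls over the whole lists also numbered 34589 and 41265 at day 0 and 68632 and 52174 at day 4, and their part in the difference was not tested.

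Introns of Ccnd2 also had their highest coverage at day 4, but differed from the exons in that day 2 lay above day 0. They were covered over 4.36% and 4.27% at day 0, 4.85% and 6.17% at day 2, and 9.90% and 9.25% at day 4, all 3 days being separated. The change to day 4 was 5.26 points (range 4.90 to 5.63), and it was separated within each nuclease: from 4.36% and 2.57% to 6.45% and 7.88% with ssRNase, and from 0% and 1.70% to 7.58% and 2.80% with dsRNase. By the same rule 18.3% of 7011 genes were higher and 28.5% lower in introns with ssRNase. With dsRNase 36.2% of 5935 genes were higher and 8.02% lower. The highest-scoring site of the gene, whose sequence in intron 4 is printed above, lay 14.08 kb from the gene start. It was overlapped by a PPS with a score of 19.1 at day 0 (1 ssRNase and 1 dsRNase replicate) and by none at day 2, and had a score of 56.2 at day 4 with calls of both replicates of both nucleases.

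Ccnd3, a D-type cyclin known to act in erythroid precursors, had less coverage. Its exons were covered over 2.72% and 2.78% at day 0, 1.83% and 7.56% at day 2, and 8.06% and 4.14% at day 4. The day 2 replicates lay on either side of day 0, and the day 4 replicates lay above it by 3.34 points (range 1.36 to 5.33). Without replicate 1 of day 4 the change was 1.38 points. A region joined from overlapping PPSs of the 3 days, chr17:47593494-47593685, had calls of both replicates on each day, with scores of 22.2, 19.4 and 19.1. Its PPS touched the 5′ UTR at day 0, lay in an exon of another transcript at day 2, and touched 5′ UTR and coding sequence at day 4. The day 0 PPS was 83 nt long, and only 6.12% of the 327 nt of 5′ UTR lay in a PPS that day. These labels name the parts touched and do not show a move of the site. At day 4 a coding site at chr17:47594734-47594854 carried both dsRNase replicates, having no PPS at day 0, and the 3′ UTR, covered over 13.7% by the whole list of day 0 and 0% at day 2, was covered over 32.0%.

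Cdk6 and Cdk4 encode the kinases that D-type cyclins activate, and coverage of both was lower at day 4. Cdk4 RNA was also lower by day 4 in the study's mRNA-seq, and its part in the lower coverage was not tested. For Cdk6 (chr5:3341485-3531008, plus strand), exonic coverage was 13.9% and 16.5% at day 0, 7.65% and 7.48% at day 2, and 10.2% and 5.28% at day 4. Both later days lay wholly below day 0, with changes of -7.66 points at day 2 (range -9.04 to -6.28) and -7.50 at day 4 (range -11.24 to -3.75). For Cdk4 the values were 9.23% and 9.94%, then 5.51% and 10.8%, then 6.62% and 7.63%, so that day 2 spanned day 0 and day 4 lay below it, a change of -2.46 points (range -3.32 to -1.60). The separation of Cdk4 was lost when either nuclease was taken alone, with changes of 1.65 points for ssRNase and 0.06 for dsRNase, each of which spanned 0 over its pairs.

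In Cdk4, overlapping PPSs of the 3 days formed the region chr10:127064166-127064266, with scores of 11.7, 20.3 and 29.3. The day 0 PPS lay in an exon of another transcript, whereas those of day 2 and day 4 spanned 5′ UTR and coding sequence, and the day 4 PPS held calls of both replicates of both nucleases. The 5′ UTR of Cdk4 was covered over 37.6% and 0% at day 0, 43.4% and 6.61% at day 2, and 6.61% in each replicate at day 4, the replicates of the earlier days differing widely. In Cdk6, the 5′ UTR was covered over 37.3%, 26.3% and 0% by the whole lists of the 3 days, and the 3′ UTR of 10220 nt over 17.9%, 10.1% and 10.9%. The highest-scoring Cdk6 site, printed above, had 40 of its 201 nt in coding sequence and 161 in the intron before it, a stretch that another Cdk6 transcript keeps as exon and that an annotated antisense gene overlaps on the other strand. The highest scores in its region were 40.4, 15.1 and 5.4 on the 3 days, and at day 4 a single dsRNase replicate made the call.

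Over the 3 days together, the introns of Cdk6 held more sites than those of any other of the 10 genes. They were also the longest, with 175535 nt in total against 17623 nt for Ccnd2, whose intronic coverage was higher on each day. PPSs of Cdk6 that touched no exon numbered 97 at day 0, 39 at day 2 and 14 at day 4. Intronic coverage was 2.4% and 3.30% at day 0, 0.65% and 0.84% at day 2, and 0.42% and 0.21% at day 4. The 3 days did not overlap, and the change to day 4 was -2.53 points (range -3.09 to -1.98). Cdk6 was the only one of the 8 genes with an intronic PPS that was separated below day 0 at either day. Over all 7333 genes with an intronic PPS, 24.4% were lower and 26.9% higher at day 4, and 18.7% were lower and 26.9% higher at day 2. Ccnd2, Ccnd3 and Rb1 were higher at both days and Cdkn2c at day 2 only, although for Ccnd3 the levels were at most 0.17% in a replicate.

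**Figure D2:**
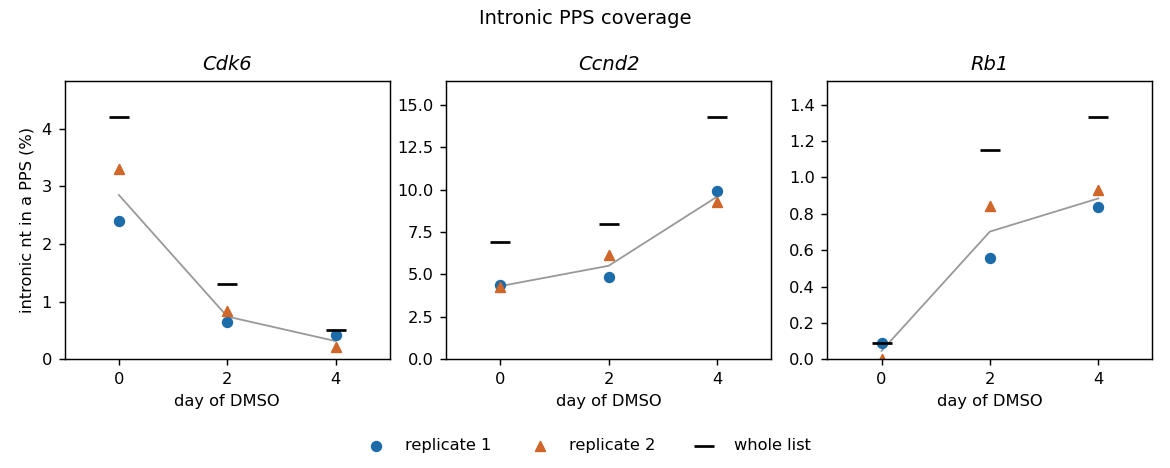
Percentage of intronic nucleotides in a PPS (vertical axis, scaled per gene from 0) at day 0, 2 and 4 for Cdk6, Ccnd2 and Rb1, with circles for replicate 1, triangles for replicate 2, a grey line through their means and a dash for the whole list. Cdk6 stood at 2.4% and 3.30% at day 0 and 0.42% and 0.21% at day 4, while Ccnd2 and Rb1 had their highest replicates at day 4.

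The Cdk6 intronic sites of day 0 came mainly from ssRNase: in the ssRNase sets intronic coverage was 2.20% and 3.0% at day 0 and 0.21% and 0.15% at day 4, whereas in the dsRNase sets it was 0.24% and 0.52%, then 0.27% and 0.12%. With ssRNase, 28.5% of 7011 genes were separated lower in introns at day 4 and 18.3% higher. The Cdk6 intronic sites of day 0 lay in the 4 long introns. Intron 2, of 46081 nt, held 21, 2 and 0 sites on the 3 days, and intron 3 held 8, 1 and 0. Intron 4 held 32, 14 and 5, and intron 5 held 40, 26 and 12. These counts include 4, 4 and 3 sites that lay in exons of other Cdk6 transcripts. At day 4 the intronic sites thus all lay in introns 4 and 5, as the map of sites along the gene shows.

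PPSs of the 3 days that overlapped were joined into regions. Of 112 regions within Cdk6 introns, 68 (60.7%) were found at day 0 only and 16 (14.3%) after induction only. Among all 92893 intronic regions of protein-coding genes the shares were 19.8% and 54.6%. Of the 19 Cdk6 regions found at day 0 only with calls of both replicates, 16 were intronic and carried both ssRNase replicates and no dsRNase call, and 3 lay in the 3′ UTR and carried both dsRNase replicates. Another 4 Cdk6 regions with calls of both replicates were found after induction only. No share over all regions was computed for these counts. The intron 3 site printed above had a score of 25.2 at day 0. Its PPS holds the word GTGTG. That word was present in 21 of the 97 intronic Cdk6 PPSs of day 0 (21.6%) and in 13.4% of all 43740 intronic PPSs of that day. It was in 5 of 39 (12.8%) at day 2 against 13.0%, and in 2 of 14 (14.3%) at day 4 against 12.2%. Lengths were not matched in this count.

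**Figure D3:**
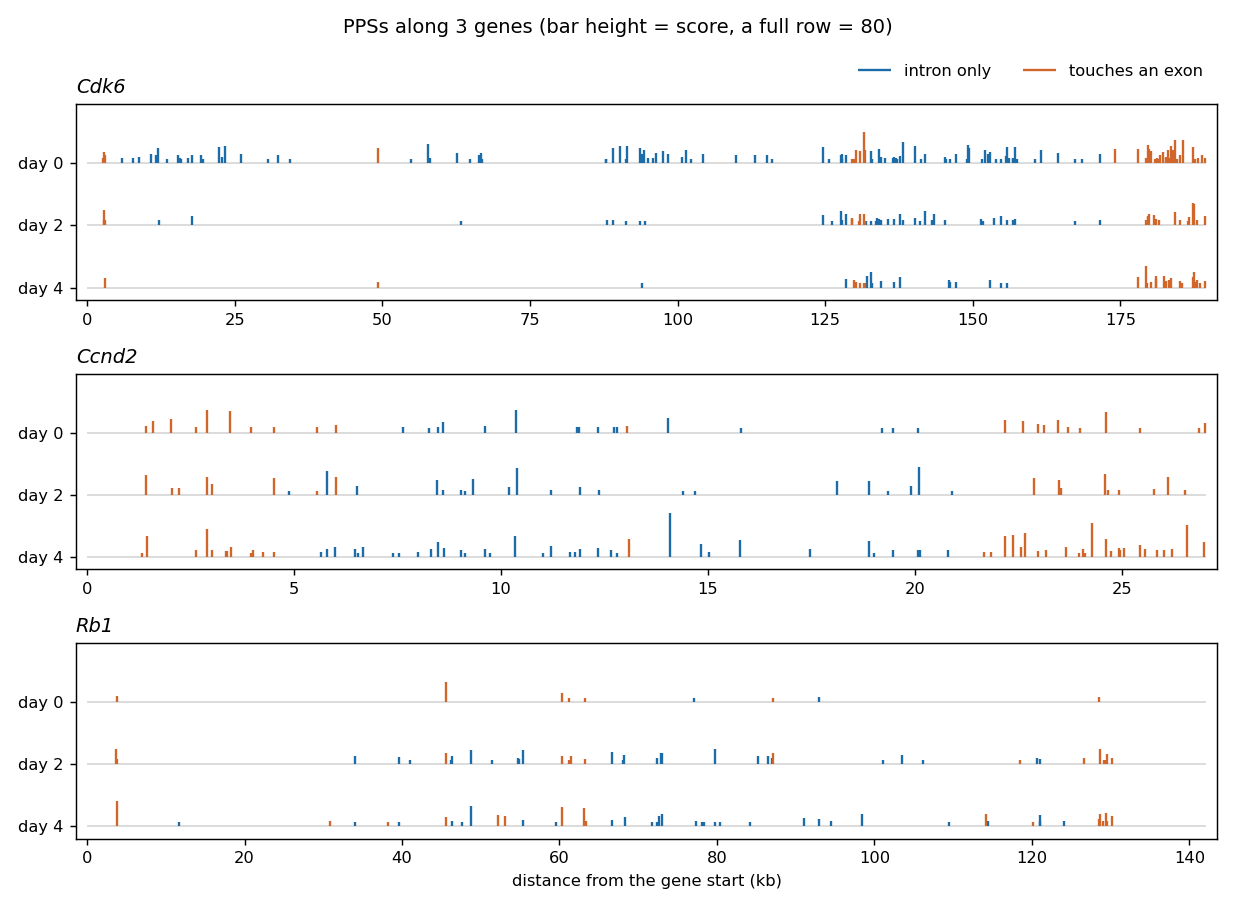
PPSs along Cdk6, Ccnd2 and Rb1 by distance from the gene start in kb (horizontal axis), with a row for each day. Each bar is a PPS and its height is the deposited score, blue where it lay wholly within introns and orange where it touched an exon. Cdk6 shows 135, 63 and 39 PPSs on the 3 days and Rb1 9, 41 and 46.

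Rb1 (chr14:73183673-73325822, minus strand), the retinoblastoma gene whose protein restrains E2F factors, showed the opposite course to Cdk6. Its exonic coverage was 4.66% and 4.07% at day 0, 10.8% and 6.93% at day 2, and 16.8% and 16.7% at day 4. The 3 days did not overlap, with changes of 4.52 points at day 2 (range 2.28 to 6.77) and 12.39 at day 4 (range 12.00 to 12.77). Without replicate 1 of day 2 the first change was 2.57 points. The 3′ UTR had no PPS at day 0 and was covered over 12.7% and 2.51% at day 2 and 23.0% and 16.1% at day 4. The coding sequence was covered over 7.67% and 8.87% at day 0, 13.0% and 10.9% at day 2, and 22.4% and 24.5% at day 4, again without overlap. Both nucleases were separated at day 4, from 3.18% and 2.51% to 5.59% and 9.38% with ssRNase and from 2.73% and 1.56% to 14.5% and 9.59% with dsRNase.

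PPSs on Rb1 numbered 9, 41 and 46. Intronic coverage was 0.09% and 0% at day 0, 0.56% and 0.85% at day 2, and 0.84% and 0.93% at day 4, so that day 2 and day 4 overlapped and both lay above day 0. Of 44 intronic regions, 42 (95.5%) were found after induction only, against 54.6% of all intronic regions. Regions of the whole gene with calls of both replicates that were absent at day 0 numbered 15, and none was found at day 0 only. For these counts, too, no share over all regions was computed. Intron 17, of 45749 nt, held 3, 14 and 17 sites. The intron 9 site printed above was called by both ssRNase replicates at day 2 (score 17.9) and at day 4 (score 25.6), when a dsRNase replicate joined. The coding site printed above, all 120 nt of it in an exon, belonged to a region with highest scores of 8.2, 20.1 and 33.2 on the 3 days. The smaller genes Gm17233 and Mir687, lie within Rb1 on the same strand, and none of the PPSs touched either.

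E2f2, an E2F factor abundant in erythroid precursors, had exonic coverage of 3.99% and 5.96% at day 0, 2.4% and 5.74% at day 2, and 2.64% and 2.25% at day 4. Day 2 overlapped day 0, and day 4 lay below it, a change of -2.53 points (range -3.71 to -1.35), or -1.55 points without replicate 2 of day 0. The lower level was found with ssRNase, from 3.99% and 5.96% to 0% and 1.27%, while the dsRNase values overlapped. Its highest-scoring site, 124 nt of 3′ UTR at chr4:136194404-136194527, had a score of 48.4 at day 0 and 19.5 at day 2, with both ssRNase replicates each time, and no PPS at day 4. A coding site at chr4:136180437-136180498 was found at day 4 only, with 1 ssRNase and 1 dsRNase replicate and a score of 20.1.

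The inhibitor genes had no common pattern. Cdkn2c (p18) was covered over 7.0% and 7.07% of its exons at day 0, 14.9% and 13.1% at day 2, and 6.55% and 4.50% at day 4. Day 2 lay 7.0 points above day 0 (range 6.07 to 7.93) and day 4 lay below it, a change of -1.51 points (range -2.57 to -0.45), or -0.48 points without replicate 2 of day 4 and -2.53 points without replicate 1. The higher level of day 2 was seen with ssRNase, from 5.14% in each replicate to 11.7% and 13.1%, and not with dsRNase, where 7.0% and 7.07% stood against 8.64% and 3.28%. It lay in the 5′ UTR of 1591 nt, covered over 8.67% and 9.37% at day 0, 25.2% and 22.2% at day 2, and 7.42% and 7.61% at day 4. A 5′ UTR region at chr4:109666262-109666418 was found on all 3 days with scores of 38.5, 28.8 and 5.57, and sites on either side of it, at chr4:109666084-109666171 and chr4:109666431-109666551, were called by both replicates at day 2 only.

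Cdkn1b was the most covered of the inhibitor genes at day 4. Its exonic coverage was 8.68% and 11.9% at day 0, 13.4% and 6.46% at day 2, and 14.2% and 12.9% at day 4. Day 2 spanned day 0, and day 4 lay above it by 3.21 points (range 0.90 to 5.51), or 1.57 points without replicate 1 of day 0. With ssRNase alone the direction was the other one, -1.60 points (range -3.19 to -0.02), and with dsRNase alone the change of 1.99 points spanned 0. A 3′ UTR region at chr6:134925137-134925276 was called by both replicates on all 3 days, with highest scores of 45.4, 13.4 and 50.7. A coding region at chr6:134921003-134921130 had no PPS at day 0 and was called by both replicates at day 2 (ssRNase) and at day 4 (mainly dsRNase).

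Cdkn1a and Ccne1 were sparsely covered, with at most 2 PPSs on any day. For Cdkn1a, exonic coverage was 1.41% and 1.27% at day 0, 3.43% in each replicate at day 2, and 1.35% and 0% at day 4. The 2 sites of day 2, both in coding sequence, were called by both dsRNase replicates (51 nt) and by both ssRNase replicates (71 nt, printed above), and neither overlapped a PPS of another day. For Ccne1, the cyclin E gene, the values were 1.84% and 2.14%, then 0% and 1.62%, then 2.29% and 0%, and no PPS had calls of both replicates. Its separation below day 0 at day 2 thus rested on 1 to 2 single calls per day, and it was reversed when only ssRNase calls or PPSs of all lengths were used.

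**Figure D4:**
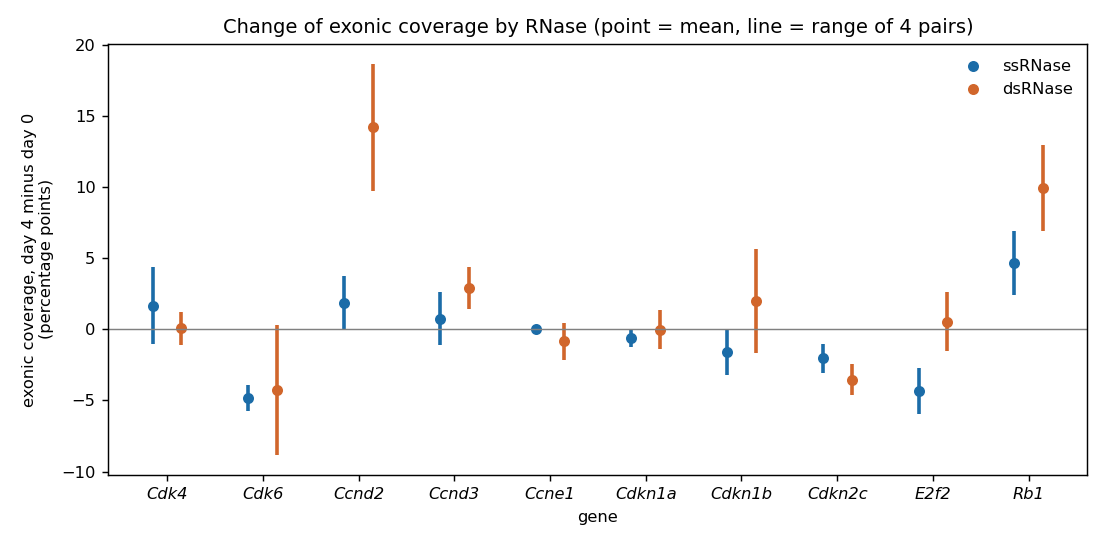
Exonic coverage of day 4 minus that of day 0, in percentage points (vertical axis), for the 10 genes, computed from ssRNase calls (blue) and from dsRNase calls (orange). Points are means and lines the range over the 4 pairs of replicates. The mean for Ccnd2 was 1.87 points with ssRNase and 14.19 with dsRNase.

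Set beside each other, the nucleases gave different counts. With ssRNase calls alone, 4 of the 10 genes were lower at day 4 (Cdk6, Cdkn1b, Cdkn2c and E2f2) and 1 was higher (Rb1), against 22.4% and 23.3% of 9113 genes. With dsRNase calls alone, 1 was lower (Cdkn2c) and 3 were higher (Ccnd2, Ccnd3 and Rb1), against 18.9% and 29.5% of 8796 genes. Rb1 was the gene that stood higher and Cdkn2c the gene that stood lower with both.

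Sites were also searched for 3 words on the transcript strand of the 3′ UTRs, overlapping matches included. The Pumilio element TGTANATA occurred 4 times in the 27632 nt of the 10 genes, and 1, 1 and 2 of these lay wholly in a PPS on the 3 days. Over the genes with an exonic PPS, 11.8%, 8.12% and 10.4% of its matches did. The AU-rich core TATTTAT occurred 6 times, of which 0, 1 and 1 lay in a PPS, against 4.54%, 2.26% and 4.13% of its matches over those genes. GTGTG occurred 58 times, with 12 (20.7%), 11 (19.0%) and 8 (13.8%) in a PPS, while 11.1%, 8.78% and 16.4% of the 3′ UTR nucleotides lay in one. Over the genes with an exonic PPS, 5.71%, 5.32% and 6.77% of GTGTG matches and 6.43%, 5.03% and 8.05% of 3′ UTR nucleotides lay in a PPS. The words TGTANATA, TATTTAT and GTGTG were found in 30%, 30% and 80% of the 3′ UTRs of the 10 genes and in 23.5%, 26.7% and 66.5% of those of all protein-coding genes with an exonic PPS. Of the GTGTG matches, 29 were in Cdk6, where 8, 9 and 1 lay in a PPS.

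Other cell cycle genes were examined as 2 lists. Of 27 further regulators, mostly of G1 and S phase, 25 had an exonic PPS, and at day 4 coverage of 10 was lower and of 4 higher than at day 0, with a median change of -1.09 points. The shares over all genes were 25.4% lower and 30.8% higher. The 3 with the largest changes were Ccnb1, a mitotic cyclin, from 19.2% and 21.9% to 3.77% and 1.23%, Cdkn2a, an inhibitor locus, from 43.3% and 21.3% to 17.7% and 21.5%, whose replicates overlapped, and Cks1b, a cofactor of p27 degradation, from 0% and 6.48% to 14.4% and 15.8%. Of the 7 genes of the MCM replicative helicase and PCNA, which serve DNA synthesis itself, 4 were lower and 1 was higher at day 4, with a median change of -6.94 points. For all genes the medians were 0.07 points at day 4 and -0.20 at day 2. At day 2 the counts were 6 lower and 8 higher in the first list, with a median change of 0.91 points, and 4 lower and 0 higher in the second, with a median of -4.13 points, against 30.4% lower and 22.3% higher over all genes. The D-type cyclin gene Ccnd1 and the inhibitor gene Cdkn2b, both in the first list, had no exonic PPS on any day.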

How the data were processed

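The 24 PIP-seq libraries of MEL cells were grouped by sample title. The authors trimmed reads with cutadapt 1.2.1, aligned them to mm10 with TopHat2 2.0.10, collapsed duplicates and called PPSs with a modified CSAR Poisson test of footprint against structure-only libraries, then merged the calls of a day into 1 list. Each deposited PPS carries the authors' score, which was used to rank PPSs, and a name field giving the nuclease and replicate of each merged call. How libraries were scaled for calling is not given in the sources used here, and the lists carry no read counts.

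PPSs of 20 to 40 nt were left out, as in the study. This took the lists of day 0, 2 and 4 from 138689, 169575 and 152513 PPSs to 114907, 119487 and 122038. The filter thus removed the most at day 2, and a day 2 stretch without a PPS may hold one of that length. Coverage was computed with Python 3.11.15, numpy 2.4.6 and pandas 2.3.3 on GENCODE vM21 genes, with introns numbered on the transcript with the longest CDS, and was tested on simulated data. No test across genes was run. Single sites named were each gene's highest-scoring PPS with both replicates and regions seen on 1 side of induction, to which a few recurrent or adjoining regions were added after their values were seen. The 10 genes and all gene lists were chosen with earlier results of these data known. Alternatives are given in the closing section. A marker of another blood cell is not reported here.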

Additional observations from a re-analysis of the deposited data

Results flagged for a closer look

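PPSs of 20 to 40 nt, the length class left out above, numbered 197 on the 10 genes over the 3 days. They lie outside the main measurement, beside 611 PPSs retained on these genes. Leaving out this length class took the whole lists from 138689, 169575 and 152513 PPSs to 114907, 119487 and 122038. PPSs on the opposite strand of the 10 gene bodies numbered 4 over the 3 days, all over Cdk4. No share over all genes is given for this count. Against day 0, none of the 10 genes differed one way in every ssRNase pair and the other way in every dsRNase pair. From day 2 to day 4, exonic coverage of Cdk6 did, with -3.19 points for ssRNase (range -4.15 to -2.24) and 3.07 points for dsRNase (range 0.88 to 5.27), and the difference between nucleases was not tested.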

How the results depend on the processing

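No paired analysis was possible because no test was run and nothing in the labels ties replicates together across days. The alternatives cover 17 separated changes of single genes against day 0: the exonic ones of day 2 and day 4 and the intronic ones of day 4. The separated intronic changes of day 2 were not among them. Of the 17, 17 kept their sign with the same number of top-scoring PPSs per list, 16 with PPSs of all lengths, with a score of 10 or more and with PPSs of both replicates, 14 with dsRNase and 13 with ssRNase calls alone. Those that turned were Ccne1 at day 2 (0.49 points with all lengths, 0.81 with ssRNase), Cdk4 at day 4 (1.65 with ssRNase, 0.062 with dsRNase), Cdkn1b at day 4 (-1.60 with ssRNase), Cdkn2c at day 2 (-1.08 with dsRNase), E2f2 at day 4 (0.54 with dsRNase) and intronic Ccnd3 at day 4 (-0.030 with ssRNase). The cause was not tested. None of the 17 turned when a replicate was left out, nor did any of the 13 exonic changes recomputed on 1 transcript per gene.

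The count higher at day 2 became 6 with a score of 10 or more. The count lower at day 2 became 1 with all lengths and 4 with dsRNase. At day 4 the count higher became 1 with ssRNase and the count lower 1 with dsRNase. With a replicate left out, the counts ranged from 3 to 5 higher and 2 to 5 lower at day 2, and from 4 to 5 higher and 4 to 6 lower at day 4, fewer values making separation easier by construction. The median change at day 2 became 1.65 points with all lengths and ranged from -1.38 to 1.21 without a replicate. At day 4 it became 0.30 with dsRNase and ranged from -1.65 to 0.16. With PPSs of both replicates only, the 2 replicates are the same by construction and no count was made. The lists carry no read counts per site, so absence of a PPS does not show absence of protein.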
